A study of Mus musculus with 8 samples.

Results

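The genes described here encode proteins that modify or remodel chromatin: histone methyltransferases and demethylases, histone deacetylases, DNA methyltransferases and TET dioxygenases, and the subunits of ATP-dependent remodeling complexes. They were taken by symbol from the rows of the expression table. The symbols begin with Kdm, Kmt, Setd, Hdac, Smarc, Arid or Dnmt, or with Chd, Brd, Ezh or Tet followed by a digit. This rule, set with earlier results of these data known, gave 91 of the 12701 genes in the table, on 20 chromosomes. The gene Brd3os entered through its symbol and was put in no role, and the other genes were put in 14 roles. Of the 91, 89 reached a value of 1 in 2 or more libraries and were tested, and Brd3os and Smarcd3 did not reach it.

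Expression was measured by RNA sequencing of macrophages resident in the lung (alveolar macrophages), which had been isolated by cell sorting from C57BL/6 mice. In the d15 and d35 groups, cultured KP tumor cells had been injected into the tail vein, and the lungs carried tumors for 15 or 35 days by the sample labels. In the naive group no tumor cells had been given. The groups held 2 d15, 3 d35 and 3 naive libraries. The growth protocol gives a harvest between 15 and 30 days, which does not cover the later label, and it allows KP or KP-GFP cells without saying which mice received which. The comparison of each tumor group with the naive group asks how the transcripts of resident macrophages differ in a tumor-bearing lung. Whether each library stands for a different animal is not stated, so the p-values speak only of the spread between libraries, which may be technical. The d15 columns carry other numbers than the d15 sample titles, and these 2 libraries are therefore called A and B.

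DNA in the nucleus is wound around histones, and enzymes that add or remove methyl and acetyl groups on histone tails, or methyl groups on DNA, mark regions as active or silent. Remodelers of the SWI/SNF, ISWI and CHD families use ATP to slide or evict nucleosomes. In macrophages, methylation of histone H3 at lysine 4 (H3K4), SWI/SNF remodeling, histone deacetylases and TET2 are known regulators of enhancers and of inflammatory genes.

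Values are scaled CPM, which are read counts divided by a library size that the authors had adjusted and written on the CPM scale. The libraries held 27465745 to 39572173 reads in the table, and a tested chromatin gene held between 6 and 9361 reads in a library, so counting error was small for all but the least expressed of them. Changes were tested with limma on log2(value + 1) across 11273 genes, and a gene was called at a Benjamini-Hochberg adjusted p below 0.05. Fold changes are differences of mean log2(value + 1), the tumor group minus the naive group, and understate the change of low genes. In bulk RNA of sorted cells, fewer cells of a type and less RNA per cell cannot be told apart.

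Most chromatin genes had a lower mean in macrophages from tumor-bearing lungs, by small amounts, and every one that passed the test was lower. At d15, 6 of the 89 tested genes fell and none rose: Arid1b, Chd2, Chd4, Hdac7, Kmt2a and Kmt2b. At d35, 11 fell and none rose: Arid1a, Arid2, Arid3b, Chd2, Chd5, Hdac7, Kdm3b, Kmt2c, Smarca2, Smarcc2 and Tet2. Chd2 and Hdac7 passed at both times, so 15 genes passed at either. The 2 comparisons share the naive libraries and are given side by side. The share called lower was 6.74% of the chromatin genes at d15, where 2% of all genes tested were called lower and 2.37% higher (4.37% in either direction). At d35 it was 12.4%, where 6.32% of all genes were called lower and 9.86% higher (16.2% in either direction).

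The median log2 fold change of the 89 genes was -0.15 at d15 and -0.17 at d35, against 0.01 and 0.00 for all genes tested, and 73 and 71 of them had a negative fold change. For 65 genes the mean was below the naive mean at both times. Both d15 libraries lay below all naive libraries for 42 of the 89 genes (47.2%), where 22.3% of all genes did so, and above them for 7 (7.87%, against 25.9%). All d35 libraries lay below all naive libraries for 30 (33.7%, against 15.9%) and above them for 3 (3.37%, against 20.7%). At an unadjusted p below 0.05, 27 chromatin genes (30.3%) passed at d15 (26 lower, 1 higher), where 26.2% of all genes did in either direction. At d35, 29 (32.6%) passed (28 lower, 1 higher), where 32.4% of all genes did in either direction. These genes are long, and long transcripts as a class were lower in the tumor groups. After the correction for transcript length described further on, 1 of the 6 calls at d15 held (Chd2) and 3 of the 11 at d35 (Chd2, Kmt2c and Smarca2).

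The counts also rested on single libraries. Without naive library 1, 2 or 3 the count at d15 was 2, 1 or 1. Without d15 library A it was 1, and without d15 library B it was 0. The calls over all genes moved too, from 493 at d15 to 232, 64, 110, 90 and 12 in those fits. Without a d35 library, which changes only the shared spread, the chromatin count at d15 was 8, 7 or 8 (554, 710 or 1079 over all genes). At d35 the chromatin count was 8, 3 or 8 without naive library 1, 2 or 3, and 8 without either d15 library. It was 6 without d35 library 1 or 3 and 23 without d35 library 2, 1 of the 23 being a rise of Arid5a. Over all genes, 1824 were called at d35, and 900, 635 or 967 without naive library 1, 2 or 3. Without d35 library 1, 2 or 3 it was 1035, 2294 or 995 genes. The count test of edgeR on the recovered reads called 4 chromatin genes at d15 and 11 at d35, and DESeq2 called 14 and 19, all lower. Of all 11273 genes, edgeR called 202 lower and 215 higher at d15, and 676 lower and 1084 higher at d35. DESeq2 called 765 of them lower and 686 higher at d15, and 1057 lower and 1355 higher at d35. With the plain read total as scale, 7 chromatin genes were called at d15 and 32 at d35, all lower, but all genes shifted too: 154 of them were called higher and 357 lower at d15 (267 and 226 in the authors' scale), 663 higher and 1644 lower at d35 (1112 and 712), and the median of all genes at d35 became -0.11.

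**Figure D1:**
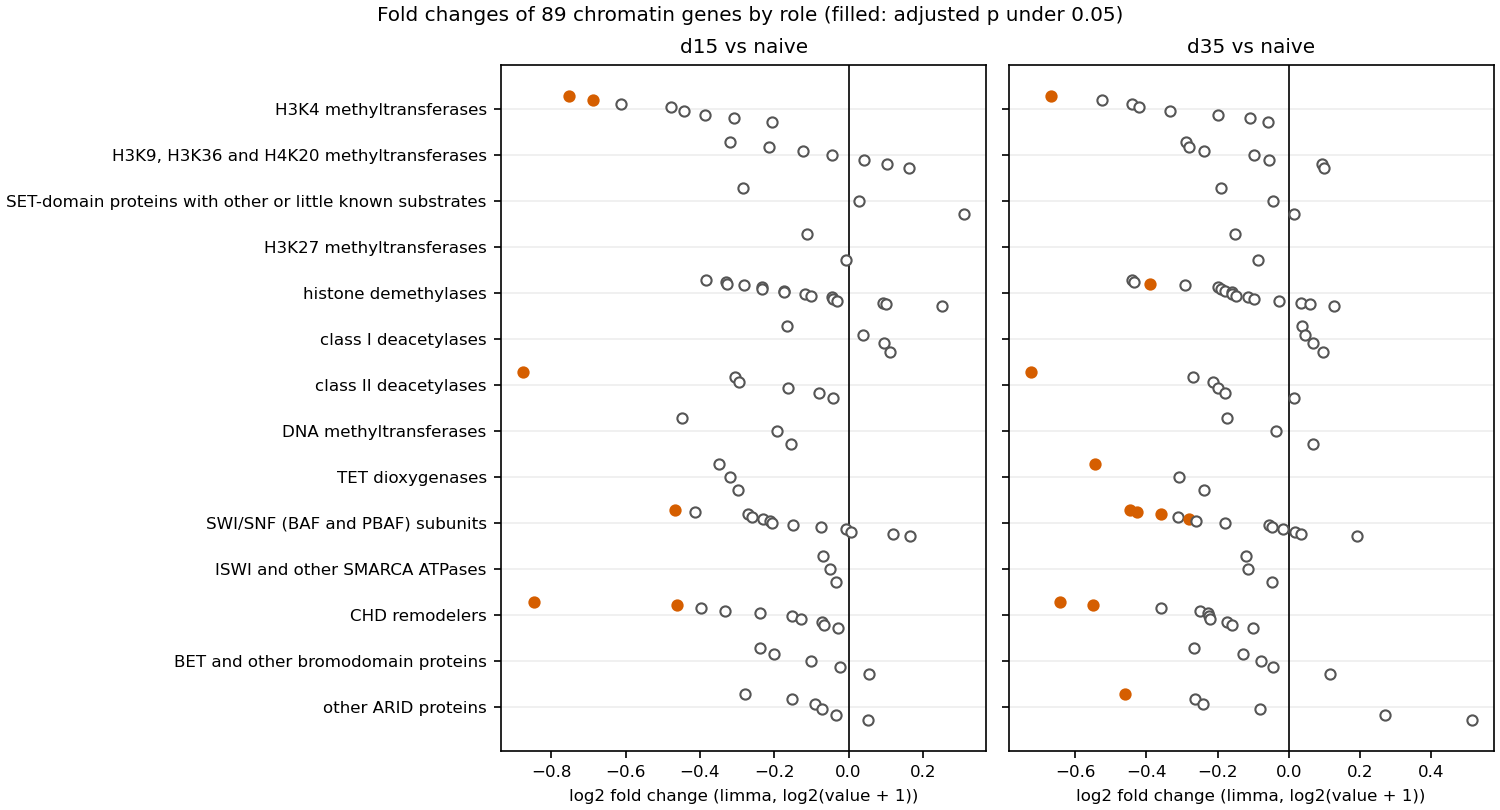
Log2 fold changes (x axis) of the 89 tested chromatin genes by role (rows), at d15 against naive (left) and at d35 against naive (right). Each circle is a gene and filled circles passed an adjusted p of 0.05 (limma). The 6 filled circles on the left and the 11 on the right all lie below 0.

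Chd2, a CHD-family remodeler that binds active chromatin, fell at both times (chr7:73426638-73541830 of mm10, minus strand, 39 exons in a longest transcript of 9085 bases). Chd2 had 24.8 and 23.4 scaled CPM in the d15 libraries and 29.1, 34.3 and 26.4 in the d35 libraries, against 44.7, 46.0 and 41.8 in the naive libraries. Every tumor library was below every naive library, and the d15 libraries were below the d35 libraries as well. Chd2 fell by 0.85 on the log2 scale at d15 (SE 0.116; limma, adjusted p = 0.00583) and by 0.55 at d35 (SE 0.104; adjusted p = 0.00794). The mean at d15 was 0.546 of the naive mean, and the mean at d35 was 0.678 of it. Both calls held after length correction (log2 fold changes -0.64 and -0.33, limma adjusted p = 0.00651 and 0.0246). Over 16 settings at d15 its adjusted p ranged from 1.28e-08 to 0.0973, and the call was lost without d15 library B only. Over 18 settings at d35 it ranged from 4.73e-05 to 0.0632, and the call was lost only when length correction and a replicate block were combined.

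All 10 CHD remodelers had negative fold changes at both times (medians -0.20 and -0.23), also under the plain read total as scale, but 6 of 10 did so at each time after length correction. Chd4 is the ATPase of the NuRD complex, which joins remodeling with deacetylation. It had 63.6 and 65.2 scaled CPM at d15, against 94.5, 84.6 and 88.7 in naive libraries, with no overlap, and fell by 0.46 on the log2 scale (SE 0.0936; limma, adjusted p = 0.0269). At d35 it had 70.0, 84.6 and 75.1, which reached the lowest naive library, and did not pass (log2 fold change -0.22, limma adjusted p = 0.095). Chd5, a related CHD protein known mainly from neurons, had 10.6 and 12.3 scaled CPM at d15 and 7.79, 9.24 and 6.31 at d35, against 11.2, 12.02 and 14.7 in naive libraries. It fell at d35 (log2 fold change -0.64, SE 0.155; limma, adjusted p = 0.0216), where the libraries did not overlap with naive, and at d15 the difference did not pass (-0.13, limma adjusted p = 0.683). Neither call held after length correction. The Chd4 call was lost without any naive or d15 library (limma, adjusted p of up to 0.201 over 16 settings), and the Chd5 call without naive library 2 or 3, without d35 library 1 or 3 and with a replicate block (up to 0.174 over 18 settings). Chd1, which binds methylated H3K4, did not pass. It had 82.9 and 84.2 scaled CPM at d15 and 77.9, 80.6 and 74.0 at d35, against 86.5, 89.2 and 87.0 in naive libraries (log2 fold change -0.17 at d35, limma adjusted p = 0.0933). After length correction the sign of the Chd1 difference at d35 turned (0.02).

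The 8 genes of the H3K4 methyltransferase group were lower in mean at both times, with medians of -0.46 at d15 and -0.38 at d35. The KMT2 proteins are the catalytic subunits of COMPASS-like complexes. KMT2A and KMT2B act mainly at promoters and KMT2C and KMT2D mainly at enhancers. Kmt2a had 12.4 and 14.3 scaled CPM at d15 and 13.7, 22.5 and 15.8 at d35, against 23.3, 21.8 and 24.3 in naive libraries. It fell at d15 by 0.75 on the log2 scale (SE 0.177; limma, adjusted p = 0.0439), and at d35 library 2 lay within the naive range and the test was not passed (-0.42, limma adjusted p = 0.0922). Kmt2b had 10.3 and 12.8 scaled CPM at d15 and 11.1, 14.7 and 16.2 at d35, against 21.5, 18.6 and 17.6 in naive libraries, with no overlap at either time. It passed at d15 (log2 fold change -0.69, SE 0.169; limma, adjusted p = 0.0476) and not at d35 (-0.44, limma adjusted p = 0.0696). Leaving out any naive or d15 library ended both calls at d15, with limma adjusted p over the 16 settings of up to 0.205 for Kmt2a and 0.219 for Kmt2b.

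Kmt2c showed the lowest adjusted p of the chromatin genes at d35 (chr5:25271798-25498783, minus strand, 59 exons, longest transcript 14967 bases). Its values were 56.1 and 68.5 scaled CPM at d15 and 45.6, 59.6 and 48.3 at d35, against 79.8, 89.5 and 75.4 in naive libraries. All 5 tumor libraries were below all naive libraries. At d35 it fell by 0.67 on the log2 scale (SE 0.116; limma, adjusted p = 0.00574), to 0.627 of the naive mean, and at d15 it did not pass (-0.39, limma adjusted p = 0.0944). After length correction the d35 difference was -0.35 and still passed (limma, adjusted p = 0.0245), and over 18 settings the adjusted p ranged from 3.77e-06 to 0.0524, losing the call only with length correction and replicate block combined. Kmt2d, its closest relative, had 38.6 and 41.5 scaled CPM at d15 and 29.6, 54.3 and 48.0 at d35, against 66.0, 65.0 and 54.7 in naive libraries, and did not pass (limma, adjusted p = 0.0926 and 0.0732). Kmt2e, a member of the family without known methyltransferase activity, was the most abundant of the group, with 116 and 121 scaled CPM at d15 and 98.8, 143 and 145 at d35, against 133, 135 and 143 in naive libraries, and overlapped with naive at d35. After length correction all 8 genes of the group kept a negative fold change at d15 and 5 of 8 at d35 (medians -0.25 and -0.12).

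The other histone methyltransferases held no call. Of the 7 genes for H3K9, H3K36 and H4K20 methylation, 4 were lower in mean at d15 and 5 at d35. Kmt5a, which places the first methyl group on H4K20, was the most abundant chromatin gene per kilobase and overlapped between groups, with 205 and 169 scaled CPM at d15 and 197, 215 and 205 at d35, against 186, 198 and 192 in naive libraries (log2 fold change 0.10 at d35, 95% interval -0.08 to 0.27). Kmt5b, which adds further methyl groups there, had 62.6 and 63.5 scaled CPM at d15 and 58.9, 68.0 and 59.6 at d35, against 69.5, 74.6 and 76.1 in naive libraries, without overlap (log2 fold change -0.24 at d35, limma adjusted p = 0.0641). Ezh1 and Ezh2 are the H3K27 methyltransferases of Polycomb repressive complexes. Ezh2 had 16.6 and 12.8 scaled CPM at d15 and 11.96, 14.9 and 12.8 at d35, against 12.9, 15.4 and 16.1 in naive libraries, and Ezh1 had 57.7 and 64.4 at d15 and 61.3, 69.1 and 56.4 at d35, against 71.8, 56.5 and 70.5. Neither passed in either comparison, and the intervals of their differences at d15 ran from -0.35 to 0.33 and from -0.38 to 0.16. Setd3, an actin histidine methyltransferase, did not pass (log2 fold changes 0.03 at d15 and -0.04 at d35), and neither did Setd6, a methyltransferase of the NF-κB subunit RelA. Setd6 had 16.7 and 16.8 scaled CPM at d15 and 17.9, 18.5 and 17.3 at d35, against 19.8, 20.5 and 21.4 in naive libraries, without overlap (limma, adjusted p = 0.114 and 0.175).

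Of the 13 subunits of the SWI/SNF complexes, 1 was lower at d15 and 4 at d35. Smarca2 encodes BRM, 1 of the alternative ATPases of the complex (chr19:26605050-26778322, plus strand, 33 exons, longest transcript 5921 bases). It had 71.7 and 70.6 scaled CPM at d15 and 56.5, 69.03 and 58.6 at d35, against 87.1, 80.6 and 80.2 in naive libraries. No tumor library reached a naive library, and all d35 libraries were below both d15 libraries. Smarca2 fell at d35 by 0.43 on the log2 scale (SE 0.086; limma, adjusted p = 0.0109) and by 0.30 after length correction (limma, adjusted p = 0.0316), and its difference at d15 did not pass (-0.21, limma adjusted p = 0.191). Over 18 settings the adjusted p at d35 ranged from 0.000149 to 0.0968 and the call was lost only with length correction and replicate block combined. The other ATPase, Smarca4 (BRG1), did not pass, with 112 and 111 scaled CPM at d15 and 110, 135 and 128 at d35, against 135, 128 and 124 in naive libraries.

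The ARID subunits define the BAF and PBAF forms of the complex. Arid1a, the large BAF subunit, had 33.9 and 30.2 scaled CPM at d15 and 27.1, 35.1 and 32.02 at d35, against 42.5, 44.0 and 42.5 in naive libraries, with no overlap, and fell at d35 by 0.45 on the log2 scale (SE 0.102; limma, adjusted p = 0.0181). Arid1b, its alternative, had 57.4 and 58.2 at d15 and 56.9, 70.5 and 66.6 at d35, against 86.5, 83.4 and 71.7, with no overlap, and fell at d15 by 0.47 (SE 0.11; limma, adjusted p = 0.0439). Its difference at d35 was -0.31 (limma, adjusted p = 0.0535). Arid2, the PBAF subunit, had 43.6 and 44.8 scaled CPM at d15 and 37.0, 45.7 and 38.8 at d35, against 49.2, 53.7 and 53.2 in naive libraries, and fell at d35 by 0.36 (SE 0.0918; limma, adjusted p = 0.0265). Smarcc2, a scaffold subunit, was the most abundant called gene, with 195 and 191 scaled CPM at d15 and 183, 194 and 194 at d35, against 254, 231 and 211 in naive libraries, and fell at d35 by 0.28 (SE 0.0759; limma, adjusted p = 0.0326). None of these 4 calls held after length correction. The Arid1a call was also lost without naive library 2 or 3 (limma, adjusted p of up to 0.161 over 18 settings), and the Arid2 call without these and without d35 library 1 or 3 (up to 0.261). The Smarcc2 call was lost without naive library 1 or 2, without either d15 library, without d35 library 1 or 3 and with a replicate block (up to 0.171). The Arid1b call at d15 was lost without any naive or d15 library (up to 0.246 over 16 settings). The core subunits Smarcb1 and Smarcd2 had log2 fold changes between -0.02 and 0.03 at both times, and the other SWI/SNF subunits that did not pass lay between -0.41 and 0.19.

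The ISWI ATPase Smarca5 did not pass, with 150 and 155 scaled CPM at d15 and 143, 143 and 144 at d35, against 152, 151 and 166 in naive libraries (log2 fold change -0.12 at d35, 95% interval -0.26 to 0.02; limma, adjusted p = 0.213). After length correction its sign at d35 turned (0.01). BET proteins read acetylated histones, and Brd2 overlapped between groups, with 209 and 193 scaled CPM at d15 and 193, 212 and 207 at d35, against 237, 200.06 and 211 in naive libraries. Brd8, a subunit of the NuA4/TIP60 acetyltransferase complex, had 54.1 and 55.9 scaled CPM at d15 and 58.6, 51.3 and 48.0 at d35, against 63.1, 65.6 and 61.4 in naive libraries. Those groups did not overlap, and the difference at d35 missed the threshold (-0.27, limma adjusted p = 0.055).

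**Figure D2:**
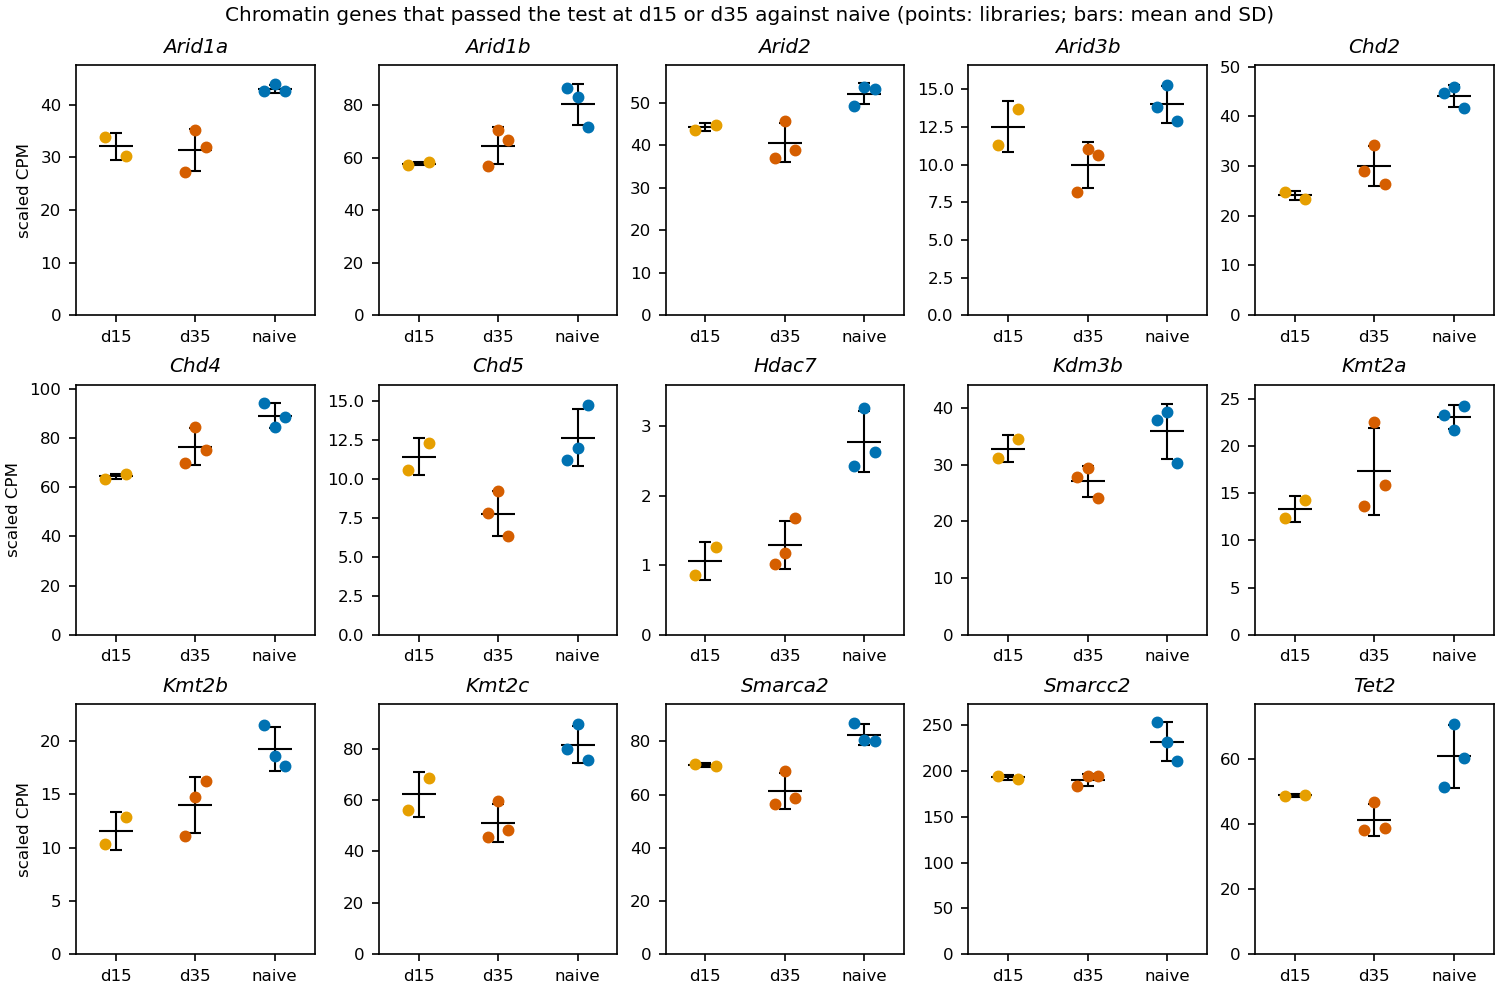
Scaled CPM (y axis, from 0, scale set per panel) of the 15 chromatin genes that passed the test at d15 or d35, by group (x axis). Points are libraries, horizontal bars the group mean and error bars 1 SD. Most panels, those of Kmt2c, Smarca2 and Chd2 among them, have all tumor libraries below all naive libraries, while Kmt2a has a d35 library within the naive range.

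The 4 class I histone deacetylases tested had no call and medians of 0.07 at d15 and 0.06 at d35, where the d35 median turned to -0.05 with the plain read total as scale. Hdac8 had the only negative fold change among them at d15 (-0.17). The 6 class II genes had medians of -0.23 and -0.21 and transcripts with a median of 4539 bases, against 2035 bases for class I. After length correction the class II medians were -0.10 and -0.09 and the class I medians 0.02 and 0.03, and the difference between the classes was not tested. Hdac1 had 74.3 and 71.4 scaled CPM at d15 and 73.3, 71.9 and 71.1 at d35, against 66.6, 67.2 and 68.3 in naive libraries, so every tumor library was above every naive library, but it did not pass (log2 fold change 0.11 at d15, 95% interval -0.05 to 0.27; limma, adjusted p = 0.354). Hdac2, its partner in the Sin3, NuRD and CoREST complexes, had 79.2 and 77.3 at d15 and 73.8, 75.7 and 77.0 at d35, against 71.9, 73.8 and 73.6 in naive libraries (0.05 at d35, 95% interval -0.10 to 0.19).

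Among the 6 class II deacetylases, Hdac7 passed at both times, at a low level. Hdac7 is a class IIa deacetylase that binds MEF2 factors and is known from endothelial cells, lymphocytes and macrophages. It had 0.864 and 1.26 scaled CPM at d15 and 1.02, 1.17 and 1.69 at d35, against 2.44, 3.27 and 2.63 in naive libraries. Every tumor library was below every naive library, and the fold changes were -0.88 at d15 (SE 0.213; limma, adjusted p = 0.0473) and -0.73 at d35 (SE 0.191; limma, adjusted p = 0.0296). Both calls were lost after length correction (limma, adjusted p = 0.07 and 0.0539) and without any of the naive libraries, the d15 call also without either d15 library and by edgeR, and the d35 call also without d35 library 1 and with a replicate block. Over all settings the adjusted p reached 0.207 at d15 and 0.108 at d35. Hdac7 shares exon bases with Slc48a1 on the opposite strand, which had 238 scaled CPM at d15, 262 at d35 and 234 in naive libraries, and whether the counting used strand is not given in the sources used here. Endothelial and B cell marker transcripts were also lower in the tumor groups. The endothelial sum over 13 genes was 202 to 249 scaled CPM at d15 and 181 to 234 at d35, against 290 to 382 in naive libraries. The B cell sum over 7 genes was 6.05 to 6.54 at d15 and 4.25 to 8.72 at d35, against 12.6 to 21.2. The T and NK cell sum was not lower (409 to 416 at d15 and 394 to 437 at d35, against 378 to 411). The part of these cells in the result was not tested. Hdac5, the most abundant gene of this role, did not pass, with 61.9 and 60.7 scaled CPM at d15 and 57.7, 62.2 and 61.9 at d35, against 78.3, 65.9 and 63.0 in naive libraries.

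Of 16 histone demethylases, none passed at d15 and 1 at d35, Kdm3b, which removes methyl groups from H3K9. Kdm3b had 31.1 and 34.5 scaled CPM at d15 and 27.8, 29.4 and 24.04 at d35, against 38.0, 39.4 and 30.3 in naive libraries. The d35 and naive libraries were separated by less than 1 scaled CPM, and the fall of 0.39 on the log2 scale was close to the threshold (SE 0.118; limma, adjusted p = 0.0479), with an adjusted p of up to 0.166 over 18 settings and no call after length correction. The call was lost without naive library 1 or 2, without either d15 library and without d35 library 1 or 3. Kdm2a, which acts on H3K36, had 44.3 and 43.4 scaled CPM at d15 and 45.0, 50.04 and 50.3 at d35, against 58.2, 54.3 and 53.8 in naive libraries, without overlap, and narrowly missed the threshold at d15 (-0.33, limma adjusted p = 0.0559). Kdm5c, an X-linked H3K4 demethylase, was the most abundant of the role, with 113 and 92.1 scaled CPM at d15 and 104, 113 and 79.6 at d35, against 160, 135 and 109 in naive libraries (limma, adjusted p = 0.19 and 0.0762).

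DNA methyltransferases did not pass in either comparison. Dnmt1, the maintenance enzyme, had 88.8 and 70.8 scaled CPM at d15 and 85.5, 86.9 and 69.5 at d35, against 92.7, 87.9 and 91.6 in naive libraries. Dnmt3a, a de novo enzyme, had 61.0 and 49.1 at d15 and 77.5, 81.7 and 62.1 at d35, against 68.3, 82.2 and 75.4 in naive libraries. Its d15 libraries stood below all naive libraries and its d35 libraries overlapped with them (log2 fold change at d15 -0.45, limma adjusted p = 0.0738, and at d35 -0.04, adjusted p = 0.864). TET enzymes oxidise methylated cytosine, and all 3 were lower in mean at both times (medians -0.32 and -0.31, and -0.09 and 0.00 after length correction). The medians before correction were the values of Tet1, which held 6 to 52 reads in a library and overlapped with naive at d35. Tet2 had 48.5 and 49.0 scaled CPM at d15 and 38.1, 46.7 and 38.8 at d35, against 51.2, 70.7 and 60.3 in naive libraries, with no overlap at either time (chr3:133463679-133545139, minus strand, 11 exons, longest transcript 9179 bases). It fell at d35 by 0.54 on the log2 scale (SE 0.12; limma, adjusted p = 0.0155), to 0.678 of the naive mean, and at d15 it did not pass (-0.30, limma adjusted p = 0.186). The d35 call was lost after length correction (limma, adjusted p = 0.0646) and without naive library 2, the highest of the 8 libraries for this gene, with an adjusted p of up to 0.0669 over 18 settings.

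The other ARID proteins are DNA-binding factors outside SWI/SNF. Arid3b had 11.3 and 13.7 scaled CPM at d15 and 8.21, 11.03 and 10.6 at d35, against 13.8, 15.3 and 12.9 in naive libraries, and fell at d35 by 0.46 (SE 0.139; limma, adjusted p = 0.0471). That call held in 6 of 18 settings and was lost without any single library other than d35 library 2, with an adjusted p of up to 0.156. Arid4a, a subunit of the Sin3 corepressor, had 39.4 and 42.7 scaled CPM at d15 and 40.8, 44.5 and 60.4 at d35, against 34.1, 38.9 and 46.4 in naive libraries, and overlapped with naive.

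Between the tumor times, no chromatin gene passed with limma, where 7.39% of all genes did (4.59% higher and 2.8% lower at d35), and none passed with edgeR. DESeq2 called 2, Dnmt3a higher and Kdm1b lower at d35. At an unadjusted p below 0.05, 8 chromatin genes passed (5 higher, 3 lower), which is 8.99% of them, where 22.3% of all genes did. The median difference was 0.01, against 0.00 for all genes. The smallest adjusted p was that of Kdm1b, an H3K4 demethylase, with 28.1, 33.0 and 28.4 scaled CPM at d35 and 38.2 and 38.2 at d15, a difference of -0.35 (SE 0.101; limma, adjusted p = 0.0619). After length correction Kdm1b and Dnmt3a both passed (limma, adjusted p = 0.0369 and 0.0418). The naive libraries had 32.9, 32.6 and 30.3 scaled CPM of Kdm1b, below both d15 libraries and within the d35 range. Chd2, Chd4 and Dnmt3a had positive differences between d35 and d15 (0.29, 0.24 and 0.41), and Chd5 and Smarca2 negative ones (-0.51 and -0.22), and these missed the threshold (limma, adjusted p from 0.0919 to 0.218).

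Kmt2c, Smarca2 and Chd2 kept their calls at d35 in 17 of the 18 settings tried, and the promoters of Kmt2c and Smarca2, which have an entry in the RefSeq table used, are shown for that reason. The windows run from 250 bases before to 50 bases after the RefSeq start (GRCm38.p6, the sequence of mm10) and are written 5′ to 3′ on the gene's strand, with capitals at each GC box (GGGCGG on either strand), a short motif bound by Sp family factors. The Kmt2c window is chr5:25498734-25499033 on the minus strand and the Smarca2 window is chr19:26604910-26605209 on the plus strand.
Kmt2c: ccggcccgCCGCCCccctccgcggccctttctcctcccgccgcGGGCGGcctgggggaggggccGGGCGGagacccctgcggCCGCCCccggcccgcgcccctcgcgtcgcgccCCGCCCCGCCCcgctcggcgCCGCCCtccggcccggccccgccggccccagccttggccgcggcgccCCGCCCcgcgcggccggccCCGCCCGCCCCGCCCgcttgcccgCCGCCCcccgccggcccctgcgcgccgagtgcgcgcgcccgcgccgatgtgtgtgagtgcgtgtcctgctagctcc
Smarca2: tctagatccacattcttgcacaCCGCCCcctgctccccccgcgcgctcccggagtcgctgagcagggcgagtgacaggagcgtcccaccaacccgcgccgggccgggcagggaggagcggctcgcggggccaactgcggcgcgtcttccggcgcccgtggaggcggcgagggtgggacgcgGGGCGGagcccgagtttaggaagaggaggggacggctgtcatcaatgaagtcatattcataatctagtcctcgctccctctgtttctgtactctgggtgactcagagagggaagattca

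The Kmt2c window held 56 CpG dinucleotides, 88% G and C and 12 GC boxes, some of which overlap. The Smarca2 window held 29 CpG dinucleotides, 65.7% G and C and 2 GC boxes. Of the 91 chromatin genes, 70 had a RefSeq promoter window. A GC box was present in 70.0% of these, and in 65.2% of the 9047 windows of all genes tested. The CCAAT box was present in 35.7%, and in 39.2% of all. The E-box CACGTG occurred in 2.86% of the chromatin gene windows, and in 10.4% of all, and the cAMP response element TGACGTCA in 0%, and in 3.38% of all, each searched on both strands. The median window of a chromatin gene held 25.5 CpG dinucleotides and 62.8% G and C, and that of all genes 21 and 60.7%. These matches describe letters in a window and are no evidence of binding.

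Transcript length moved with the fold changes. The longest annotated transcript of the tested chromatin genes had a median of 5773 bases, from 1660 to 19823, against a median of 3139 bases for the 11217 tested genes with a length. Of the 89 chromatin genes, 51 lay in the longest of 5 equal length classes of all genes, at 5103 bases or more. Across genes, the correlation of log2 fold change with log2 length was -0.37 at d15 and -0.29 at d35 over all genes, and -0.55 and -0.54 over the 89 chromatin genes (Pearson's r; genes of a comparison share its libraries and are not independent). Between d35 and d15 it was -0.04 over all genes and 0.05 over the chromatin genes. Among all genes, the median log2 fold change went with length class: 0.19, 0.05, 0.00, -0.06 and -0.15 from the shortest to the longest class at d15, and 0.20, 0.04, -0.01, -0.06 and -0.16 at d35.

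Set against genes of like length, the gap in medians was smaller in the longest class. The gap in called shares was not smaller in every class. In the longest class, 5 of 51 chromatin genes (9.80%) were called lower at d15, where 4.55% of all genes of that class were, and their median was -0.24, against -0.15. At d35 it was 8 of 51 (15.7%), where 14.9% of all genes of that class were called lower, with medians of -0.24 and -0.16. In the next class, 1 of 16 chromatin genes (6.25%) was called lower at d15 (Hdac7), where 2.76% of all genes were. At d35, 3 of 16 (18.75%) were called lower there (Arid3b, Hdac7 and Smarcc2), where 6.78% of all genes were. None of the 22 chromatin genes in the shorter 3 classes was called.

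**Figure D3:**
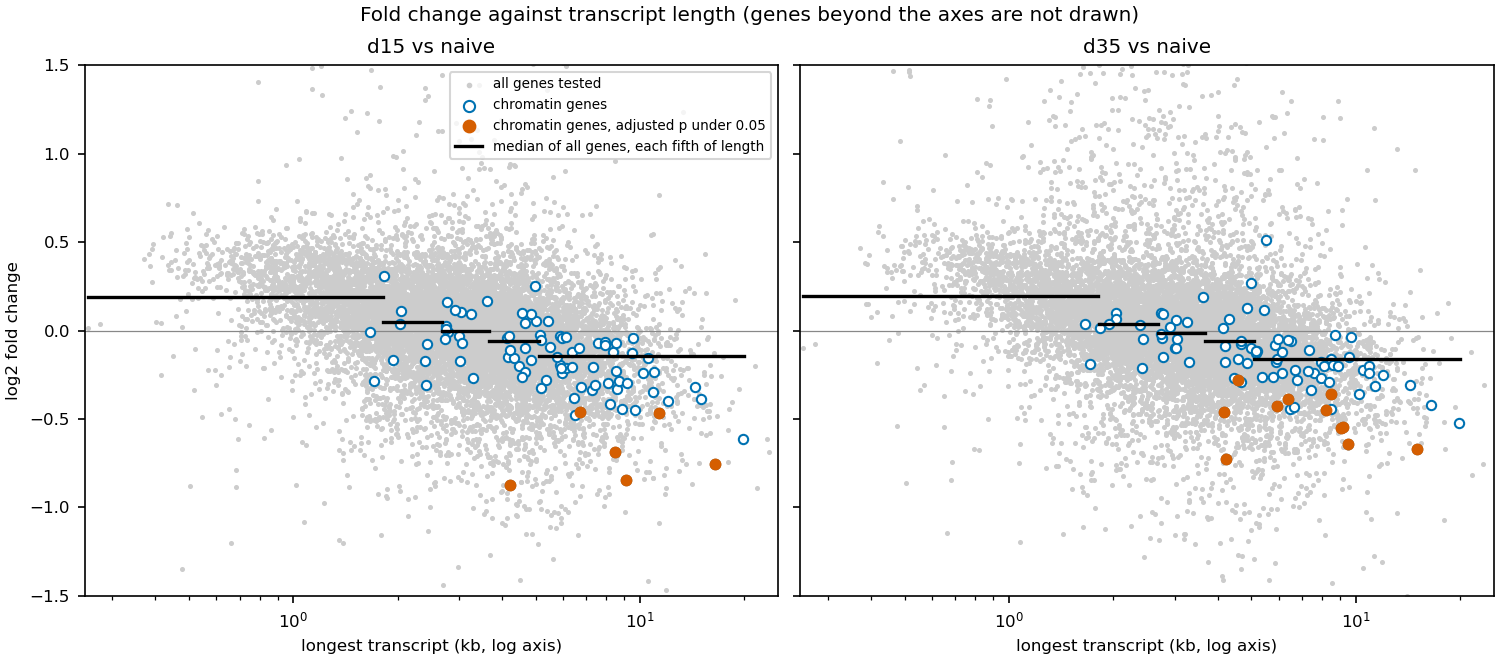
Log2 fold change (y axis) against longest transcript length (x axis, log scale, kb) at d15 against naive (left) and d35 against naive (right). Grey points are all genes tested, open circles chromatin genes, filled circles those that passed, and black lines the median of all genes in each of 5 length classes. The median line falls from 0.19 to -0.15 at d15 and from 0.20 to -0.16 at d35 from the shortest to the longest class, and the chromatin genes lie mostly at its long end.

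In a length-corrected fit, each library's smooth trend of log2 deviation on log2 length was removed before the test. The correlation with length over the chromatin genes became -0.11 at d15 and -0.04 at d35, and their medians became -0.06 and -0.04. A negative fold change remained for 56 of the 89 at d15 (62.9%) and 55 at d35 (61.8%), against 48.8% and 50.1% of all genes. The calls fell to 1 at d15 (Chd2) and 3 at d35 (Chd2, Kmt2c and Smarca2). These are 1.12% and 3.37% of the chromatin genes, where 1.19% and 3.57% of all genes were called lower after the same correction. No chromatin gene was called higher, where 1.85% and 6.9% of all genes were. Of the 11 genes called at d35, Kmt2c moved most, its log2 fold change being -0.35 after correction and -0.67 before, with a longest transcript of 14967 bases. Hdac7, with a transcript of 4226 bases, moved little (-0.82 after and -0.88 before at d15, -0.67 after and -0.73 before at d35). The correction removes any change of long genes that is shared with their length, whatever its origin, and does not tell a technical from a biological one.

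**Figure D4:**
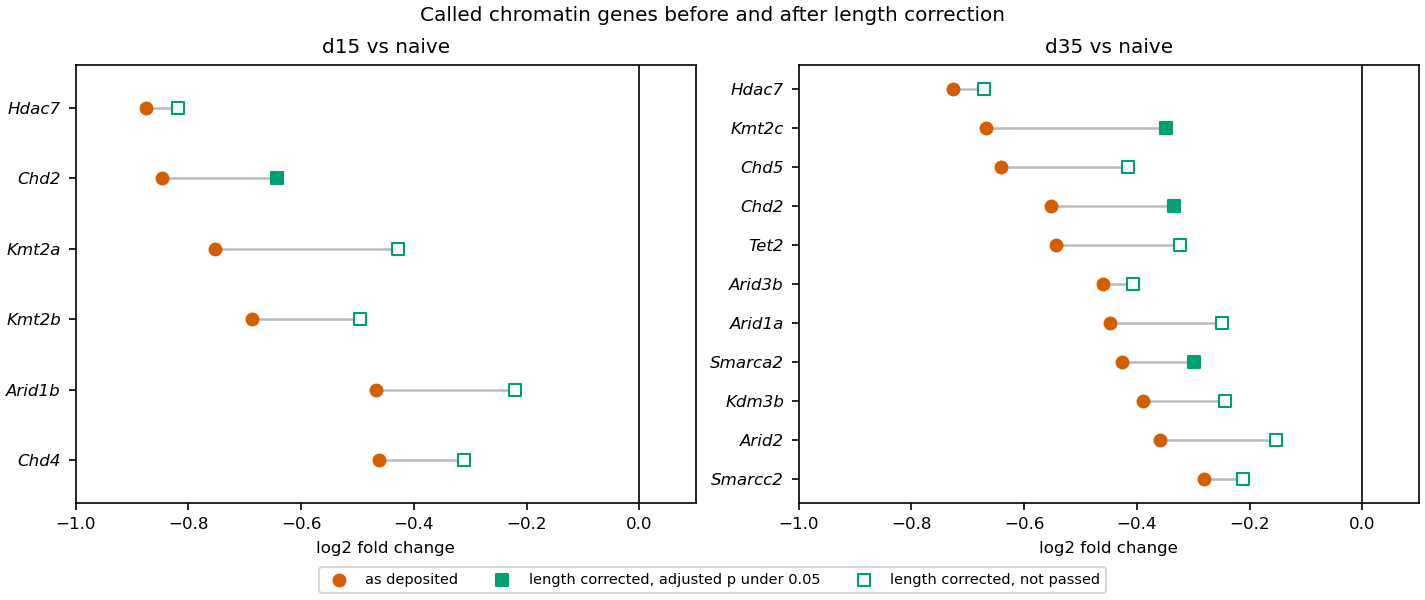
Log2 fold change (x axis) of the called chromatin genes (rows) at d15 (left) and d35 (right), as deposited (circles) and after length correction (squares, filled where the adjusted p stayed below 0.05). All symbols stay below 0. Chd2 alone is filled on the left, and Kmt2c, Chd2 and Smarca2 on the right.

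The gradient was also measured in each library as a deviation from the 8-library mean, so that the values of the 8 libraries add up to 0. The slope of this log2 deviation on log2 length was -0.05 to -0.03 in the d15 libraries and -0.12 to 0.00 in the d35 libraries, against 0.06 to 0.10 in the naive libraries. The median deviation of the chromatin genes from their 8-library mean was -0.04 and -0.07 in d15 libraries A and B and -0.09, 0.02 and -0.08 in d35 libraries 1, 2 and 3, against 0.12, 0.11 and 0.08 in the naive libraries. The d35 library 2 was the tumor library closest to the naive ones in both measures. Their summed level was 4193 to 4303 scaled CPM at d15 and 4076 to 4510 at d35, against 4637 to 4854 in naive libraries, so that every tumor library was below every naive library.

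**Figure D5:**
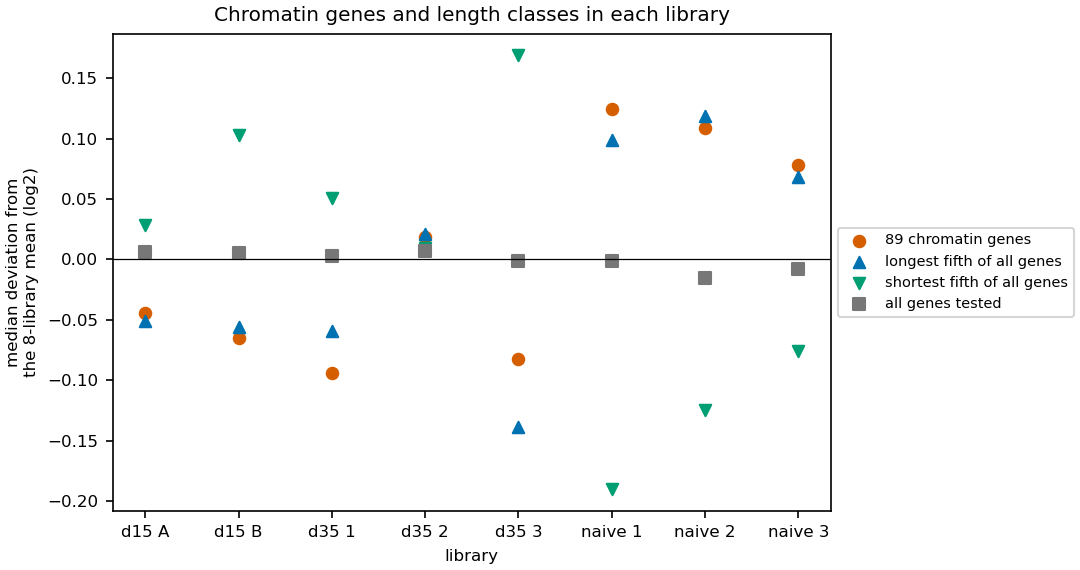
Median log2 deviation from the 8-library mean (y axis) in each library (x axis) for the 89 chromatin genes, the longest and the shortest of 5 length classes of all genes, and all genes tested. The chromatin genes and the longest class lie together, above 0 in the naive libraries and below 0 in all tumor libraries but d35 library 2, and the shortest class lies on the other side of 0 in those libraries.

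Per kilobase of transcript, which allows levels of different genes to be set side by side, the most abundant chromatin genes in naive libraries were Kmt5a with 70.1 scaled CPM per kilobase, Smarcd2 with 51.2, Smarcc2 with 50.9, Smarcb1 with 46.8 and Brd2 with 46.3. Among Smarcd2, Smarcc2, Smarcb1 and Brd2 the ranges of mean ± SD overlapped (SD 4.65, 4.71, 0.678 and 4.08, n = 3). Hdac1 followed with 33.0. The lowest were Tet1 with 0.066 and Smarcd3, an alternative SWI/SNF subunit known from muscle and heart, with 0.168. The median over the 91 genes was 6.77 scaled CPM per kilobase.

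Other chromatin genes, from 10 lists of partners and enzymes whose names the rule does not take, also had more lower than higher calls. Of 163 listed genes, 153 were tested. At d15, 1 was higher and 4 lower (2.61% lower, where 2% of all genes were), and at d35, 3 were higher and 18 lower (11.8% lower, where 6.32% of all genes were), with medians of -0.04 and -0.10. After length correction 2 were higher and 1 lower at d15, and 1 higher and 5 lower at d35 (0.654% and 3.27% lower, where 1.19% and 3.57% of all genes were). These genes are also long, with a median of 4407 bases.

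Among histone acetyltransferases and coactivators, 1 of 18 was lower at d15 (Ncoa3) and 4 at d35 (Kat6a, Kat6b, Ncoa1 and Ncoa2). Ncoa2, a nuclear receptor coactivator, averaged 38.9 ± 1.42 scaled CPM at d35 and 59.0 ± 4.92 in naive libraries (SD, n = 3 each; log2 fold change -0.59, limma adjusted p = 0.00223) and also passed after length correction. Of 20 deacetylase corepressors, Sin3b was higher at both times. Sin3b averaged 135 ± 2.09 scaled CPM at d15 and 103 ± 5.37 in naive libraries (SD, n = 2 and 3; log2 fold change 0.38, limma adjusted p = 0.0332). Sap30, another Sin3 subunit, was higher and Rcor3 lower at d35.

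Dot1l, the H3K79 methyltransferase, averaged 8.27 ± 1.203 scaled CPM at d15 and 14.5 ± 0.378 in naive libraries (SD, n = 2 and 3; log2 fold change -0.75, limma adjusted p = 0.0224) and was the 1 of 19 other methyltransferases to pass. Of 26 Polycomb partners, none passed at d15 and 4 were lower at d35 (Jarid2, Phf1, Bmi1 and Cbx7), of which Phf1 also passed after length correction. Cohesin and CTCF genes had 3 of 11 lower at d35 (Stag1, Stag2 and Pds5a), other remodeling subunits 3 of 26 (Bicral, Srcap and Baz2b), COMPASS partners 1 of 9 (Paxip1), and other demethylases 2 of 8 lower (Phf8 and Jarid2) and 1 higher (Jmjd6). Sirtuins (7 genes) and DNA methylation readers (10 genes) had no call in either comparison. In the comparison of d35 with d15, 2 of the 153 genes were higher (Ncoa3 and Rcor1) and 4 lower (Bmi1, Hat1, Ncoa1 and Stag2).

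For d15, the authors' deposited table listed 88 of the 91 genes and, at its own false discovery rate below 0.05, called 3 of them (3.41%), all lower. Of all 10778 genes it called 389 (3.61%) in either direction, 209 lower and 180 higher. In the authors' deposited table the log2 fold change was -0.89 for Chd2 (false discovery rate 0.00704), -0.49 for Chd4 (0.0394) and -0.65 for Kmt2d (0.0218). Chd2 and Chd4 were also called by limma, and Kmt2d was not.

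The sorted cells carried macrophage markers in all libraries. The summed level of 18 alveolar macrophage markers was 39413 to 44309 scaled CPM at d15 and 39787 to 53644 at d35, against 29080 to 36561 in naive libraries. Of these markers, 3 were higher at d15 (Pparg, Ear2 and Atp6v0d2) and none lower, and at d35 5 were higher (Cd68, Fabp5, Car4, Ear2 and Fcgr1) and 2 lower (Siglecf and Adgre1). Of 17 tested monocyte and interstitial macrophage markers, 11 were higher at d35, with sums over the list of 1701 to 1838 at d15 and 2300 to 3755 at d35, against 1660 to 2051 in naive libraries. Endothelial markers had 3 of 13 lower at d15 and 8 of 13 at d35, and B cell markers 1 and 4 of 6. Of 13 epithelial and tumor cell markers, Krt8, Krt18, Krt7 and Hopx were higher and Epcam lower at d35. Krt8 averaged 15.0 ± 4.43 scaled CPM at d35 and 0.262 ± 0.125 in naive libraries (SD, n = 3 each). Of 15 proliferation markers, Ccnb2 was higher and 4 were lower at d35. Fibroblast markers had 1 of 6 lower at each time (Col3a1), dendritic cell markers 1 of 5 lower at d15 (Clec9a), T and NK cell markers 1 of 5 higher at d35 (Il7r), and neutrophil markers 2 of 7 higher at d35 (S100a9 and Il1r2). Of 21 dissociation and heat shock genes, 4 were higher at each time and Jun was lower at d35, and 7 mitochondrially encoded transcripts had no call. The part of these other cells and of RNA quality in the chromatin gene differences was not tested.

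Overlapping genes limit some values. Of the 15 called chromatin genes, 11 share exon bases with another annotated gene, and for 10 of these the partner was not among the genes of the table. Only the reads of Hdac7 could be set beside those of a measured partner, as given above.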

How the data were processed

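Alveolar macrophages were sorted from lungs, RNA from 20000 cells was isolated, and 1 ng was made into cDNA with a SMART-Seq v4 kit and sequenced on an Illumina NextSeq, per the labels' protocols. STAR 2.5, mm10 and edgeR appear in the submitters' processing notes, the last with no version number. How reads were counted, with which annotation and with or without strand, is not given in the sources used here. The expression table is a signal per gene that the authors deposited as scaled CPM. Its values are (reads + 0.5), as CPM of an adjusted library size, and whole reads were recovered within 0.001 for 100% of them. The gene with least reads had 41 in total, so low genes had been removed before deposit. For d15 the authors deposited their own test, with a log2 fold change, a p-value and a likelihood-ratio score per gene. Its file header does not state a direction, and the values matched d15 over naive.

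Differences were tested with limma 3.58.1 (R 4.3.3, intensity trend) on log2(value + 1), since the values are scaled and not counts. The 11273 genes tested reached a value of 1 in 2 or more libraries. One model with group as its term covered the 8 libraries (5 residual and 5.717 prior degrees of freedom), with Benjamini-Hochberg adjustment in each of 3 comparisons. Alternatives were edgeR 4.0.16 and DESeq2 1.42.0 on the recovered reads, other pseudocounts and filters, only the compared groups, each library left out, a replicate block, and a length correction. The length correction subtracted from each library a lowess trend (span 0.3) of its log2 deviation on the log2 length of the longest GENCODE M21 basic transcript. Coordinates are GENCODE M21 on mm10 and promoters are RefSeq windows. The limma step was checked on simulated data with randomly chosen changed genes and no length trend. That check therefore does not bear on calls that go with transcript length.

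The gene set, roles and lists were chosen with earlier results of these data known. Genes were named by rule: called genes, and in each role the most abundant gene and the one with the smallest p. Kmt2d, Smarca4, Smarcb1, Smarcd2, Kdm1b, Arid5a and the genes of the per-kilobase order were named after their values were seen. A replicate number given to 2 groups was not taken as a pairing. Results for some genes of the lists are not reported here.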

Additional observations from a re-analysis of the deposited data

How the results depend on the processing

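Every called chromatin gene kept a negative fold change under all settings run. At d15, 6 chromatin genes were called, and 14 with DESeq2, 11 with only the 2 groups fitted, 1 after length correction and 0 to 8 when each library was left out in turn. At d35, 11 were called, and 19 with DESeq2, 3 after length correction, 32 with the plain read total as scale and 3 to 23 with each library left out. Between d35 and d15, 0 were called, and 2 with DESeq2, 2 after length correction, 1 with the plain read total and 0 to 2 with each library left out. The plain read total and the combination of length correction with a replicate block were chosen after seeing the data. The plain read total moved the median of all genes at d35 by about -0.11, and relative to it the median of the chromatin genes was -0.18, against -0.17 in the authors' scale. It called 453 genes higher and 462 lower between d35 and d15, against 517 and 316.

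Over all genes, 493 were called at d15, 1451 with DESeq2, 1179 with only the 2 groups fitted and 12 to 1079 with each library left out. At d35, 1824 were called, 2412 with DESeq2, 1174 after length correction and 635 to 2294 with each library left out. Between d35 and d15, 833 were called, 1368 with DESeq2, 421 with only the 2 groups fitted and 193 to 1052 with each library left out. The d35 and naive libraries share replicate numbers, but same-numbered libraries deviated together only weakly (correlations -0.01, -0.05 and 0.15) and not every library correlated best with its own number. The labels do not say what a shared number means, and with so few libraries these correlations cannot decide whether it marks a shared batch or day. With a replicate block 9 chromatin genes were called at d35, 7 of them among the 11, and 1460 genes in all. Length correction with a replicate block called 0 chromatin genes (by limma) and 635 genes in all at d35. No paired fit was possible for d15, whose columns carry other numbers than the titles. Negative fold changes at d35 went from 71 of the 89 chromatin genes to 55 after length correction. Chd1 and Smarca5 were among the genes that changed sign (0.0166 and 0.0143), and had the same values with a replicate block added. Other pseudocounts and filters moved the counts of chromatin genes by at most 2 calls. The causes of these shifts were not tested.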
